A study of Mus musculus with 8 samples.

Results

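The S100 proteins are small calcium-binding proteins, and 10 of their genes that are expressed in skin were compared in the epidermis of newborn mice carrying an active mutant mitochondrial helicase and in control newborns. The members were S100a3, S100a4, S100a6, S100a7a, S100a8, S100a9, S100a10, S100a11, S100a14 and S100a16, chosen by gene symbol from 22180 genes measured by a probe set that names a single gene. All 10 were found, each on 1 probe set, and no filter on low values was applied. Expression was measured on 8 arrays, 4 per group, as log2 intensities. The K320E group had the genotype K320E-TwinkleEpi, in which the K14 promoter brings about expression of the K320E mutant of the mitochondrial DNA helicase Twinkle in epidermal cells. The control group had the genotype R26-K320E-TwinkleloxP/+, so its label names the K320E allele as well. Both groups were of the C57BL/6J strain and were taken at P0, postnatal day 0. The K14 promoter is active in basal keratinocytes and the outer root sheath of the hair follicle and not in leukocytes or fibroblasts. The comparison asks how the newborn epidermis differs when the mutant helicase is active in it. Nothing in the labels ties the 4 arrays of a group to different animals or litters, and the p-values cover only the spread among these samples, part of which may be technical.

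S100 proteins carry calcium-binding EF-hand motifs, mostly work as dimers, and change shape on binding calcium so that they can grip partner proteins such as annexins. S100a8 and S100a9 pair to form calprotectin, a metal-binding antimicrobial complex that neutrophils store and that keratinocytes make when they are wounded or inflamed. Once outside the cell they act as alarmins through the receptors TLR4 and RAGE. S100a7a belongs to the psoriasin and koebnerisin group of skin alarmins, and S100a3 is a cysteine-rich protein of the hair cuticle. Most of these genes lie together in the epidermal differentiation complex, a stretch of the genome dense in genes of the outer skin layers.

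Windows around the start sites of the alarmin genes are shown because S100a8 and S100a9 had the highest fold changes among the members and lie side by side, while S100a7a, the third alarmin, lies next to them. RefSeq start sites on build GRCm38.p6 were given for 8 of the 10 members; S100a10 and S100a14 are named only. Each sequence runs 5′ to 3′ on the gene's strand, over 270 bases from 250 before the start site to 20 after it. The window of S100a7a is chr3:90654052-90654321 on the plus strand, that of S100a8 chr3:90668821-90669090 on the plus strand, and that of S100a9 chr3:90695702-90695971 on the minus strand. Capitals mark matches to TATAAA (the TATA box), TGANTCA (the AP-1 site) or TTGCNNAA (a C/EBP core), searched on both strands.
S100a8: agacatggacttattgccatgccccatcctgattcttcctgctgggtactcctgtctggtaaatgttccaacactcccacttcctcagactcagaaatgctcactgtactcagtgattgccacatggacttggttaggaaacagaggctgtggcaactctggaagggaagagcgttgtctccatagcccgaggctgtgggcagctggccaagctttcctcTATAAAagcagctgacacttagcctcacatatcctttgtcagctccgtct
S100a9: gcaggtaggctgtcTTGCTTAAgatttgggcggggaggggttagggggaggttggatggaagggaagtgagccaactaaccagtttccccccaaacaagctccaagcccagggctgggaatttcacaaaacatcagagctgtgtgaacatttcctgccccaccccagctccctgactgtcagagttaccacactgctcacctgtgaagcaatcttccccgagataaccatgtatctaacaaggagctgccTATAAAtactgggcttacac
S100a7a: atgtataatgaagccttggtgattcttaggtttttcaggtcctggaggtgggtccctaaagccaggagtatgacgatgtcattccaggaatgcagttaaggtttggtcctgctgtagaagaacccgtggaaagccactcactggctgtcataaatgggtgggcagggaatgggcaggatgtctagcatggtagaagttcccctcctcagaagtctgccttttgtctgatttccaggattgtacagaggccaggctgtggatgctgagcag
S100a8 holds TATAAA beginning 30 bases before its start site, and S100a9 holds it at the start site given in the table. S100a9 also holds TTGCTTAA, which matches the C/EBP core, 236 bases before the start. The S100a7a window held no match to any of the 3 motifs. Of all 32851 windows of the same length, 12.9% held TATAAA, 7.23% TGANTCA and 10.1% TTGCNNAA. Among the other members S100a4 held TATAAA at 31 bases before its start, S100a11 held TGANTCA at 136 and 38 bases, 1 of 4 windows of S100a3 held TATAAA, 1 of 2 windows of S100a16 held TGANTCA, and S100a6 held none. The searched motifs do not overlap one another in these windows, and a match is a description of letters only.

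The deposited log2 intensities ran from 4.31 to 13.1, and the medians of the 8 arrays lay between 6.06 and 6.11. Twnk, which encodes Twinkle, averaged 9.05 ± 0.18 in K320E, against 6.73 ± 0.18 in the controls (SD, n = 4 each), with every K320E array above every control; whether the probe set separates mutant from normal transcripts was not tested. All 8 measured keratinocyte markers, which define the labelled tissue, lay above the upper quartile of gene means (7.82), with Krt10 and Krt1 at means of 12.9 and 12.8. Some arrays stood apart. K320E replicate 3 had Xist at 6.84 with a Y-linked list mean of 8.64, control replicate 3 had Xist at 6.17 without Y-linked transcripts (list mean 4.75), and control replicate 2 had Xist at 9.27 together with a Y-linked mean of 9.05. Control replicate 4 had the highest mean of the hair shaft list, 7.83, against 6.64 to 7.03 in the other controls and 6.24 to 6.52 in K320E.

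No S100 member passed the threshold of 0.05 on the Benjamini-Hochberg adjusted p of limma's fit over all genes (0 of 10, where 0.879% of all genes passed). At an unadjusted p under 0.05 there were 8 members, where 14.8% of all genes had one. Of these 8, S100a8, S100a9, S100a6, S100a16, S100a14 and S100a10 were on average higher in K320E, and S100a3 and S100a4 lower. The 4 arrays of K320E did not overlap the 4 controls in 5 members (9.25% of all genes), 4 of them higher in K320E (5.5% of all genes) and 1 lower (3.75% of all genes). The median log2 fold change, K320E minus control, was 0.32 over the 10 members and -0.00052 over all genes. The count moved with the setting: it was 3 with the lowest 33.3% of genes by mean level left out (S100a6, S100a8 and S100a9, where 1.95% of 14787 genes passed), and 1 with an intensity trend and robust prior (S100a6, 1.06% of all genes). It was 1 without K320E replicate 2 (S100a6, 0.78% of all genes) and 2 without control replicates 2 and 3 together (S100a3 and S100a9, 0.834% of all genes). That last fit keeps control replicates 1 and 4 only. The count was 0 without K320E replicate 1 (0.473% of all genes), without control replicate 4 (0.532% of all genes) and with the hair shaft level as a covariate (0.0271% of all genes).

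**Figure D1:**
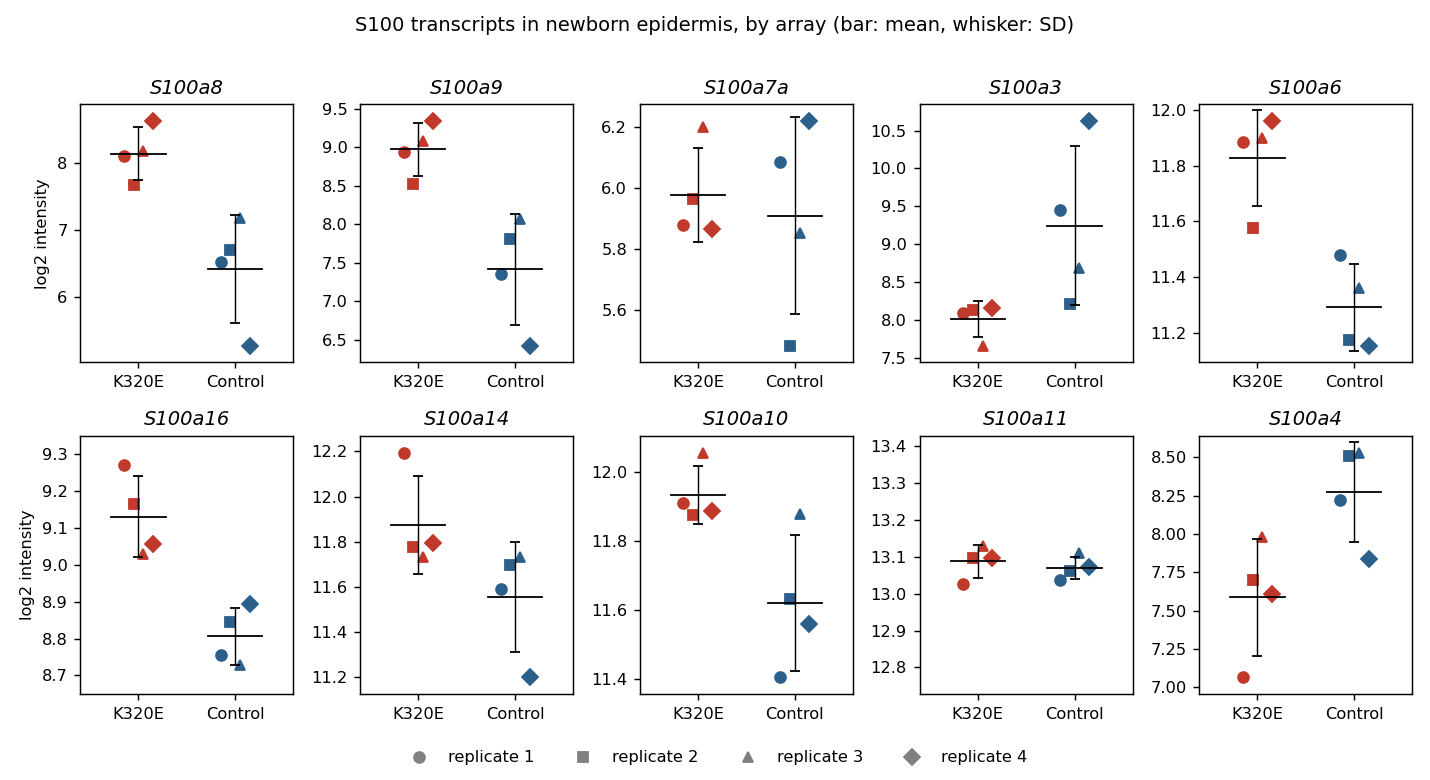
Log2 intensity of each of the 10 S100 members on every array, K320E left of Control, with the bar at the group mean and the whisker at the SD (n = 4 each). Each panel has its own axis that does not start at 0; S100a8, S100a9, S100a6 and S100a16 have all 4 K320E arrays above all 4 controls, and S100a3 has them all below.

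The calprotectin pair had the largest differences of the family. S100a8 measured 8.11, 7.67, 8.17 and 8.63 in K320E replicates 1 to 4, against 6.51, 6.69, 7.19 and 5.27 in control replicates 1 to 4. Every K320E array was above the highest control, and control replicate 4 was the lowest of all arrays. S100a8 thus had a log2 fold change of 1.73 (SE 0.37, 95% confidence interval 0.90 to 2.56; limma adjusted p = 0.074), or 3.31-fold. It was the 18th highest fold change of 22180 genes, but 322nd by p-value, and the controls were spread over 1.91 log2 units. Without control replicate 4 it was 1.35 (limma adjusted p = 0.055).

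S100a9, the larger subunit of calprotectin, followed the same course. It measured 8.94, 8.53, 9.08 and 9.34 in K320E, against 7.35, 7.81, 8.07 and 6.42 in controls, again with no overlap and with control replicate 4 at the bottom. Its log2 fold change was 1.56 (SE 0.33, 95% confidence interval 0.82 to 2.29; limma adjusted p = 0.070), or 2.94-fold, the 23rd highest, and 1.23 without control replicate 4 (limma adjusted p = 0.059). The log2 difference between the S100a8 and S100a9 probe sets lay between -0.90 and -0.71 in K320E and between -1.15 and -0.84 in controls, and the group means of this difference lay 0.17 apart.

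S100a7a stood apart from the other alarmins. It measured 5.88, 5.96, 6.20 and 5.87 in K320E, against 6.08, 5.48, 5.85 and 6.22 in controls. The K320E values all lay within the range of the controls. Its log2 fold change was 0.07 (SE 0.15, 95% confidence interval -0.27 to 0.41; limma adjusted p = 0.89). Its mean level was below the median of gene means (6.36), and its fold change became -0.075 without control replicate 2 and -0.0072 without K320E replicate 3.

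Neutrophils store calprotectin, and markers of these cells were set beside the pair. Of 13 neutrophil markers 0 passed the threshold, and 2 had an unadjusted p under 0.05 (14.8% of all genes). Positive fold changes were found in 10 of the 13, and 12 had a mean below the median gene. Ly6g averaged 4.79 in K320E and 4.79 in controls, and Mpo, the myeloperoxidase gene, 5.59 and 5.58. Both were picked with their values already seen and had the smallest fold changes of the 13 in size. Ly6g also lay near the lowest value measured, 4.31. The chemokine receptor gene Cxcr2 had the highest fold change, averaging 8.03 ± 0.07 in K320E, against 6.71 ± 0.90 in the controls (SD, n = 4 each). Its log2 fold change was 1.32 (limma adjusted p = 0.15, and 0.015 without control replicates 2 and 3 together), while the next highest, Mmp8, had 0.37. Control replicate 3, left out in that fit, was the control nearest to K320E for Cxcr2, at 7.97. The list mean ran from 5.61 to 5.67 in K320E and from 5.34 to 5.58 in controls. It takes in Cxcr2, whose fold change was far above the rest. The median fold change of the 13 was 0.03, and 0.015 without control replicate 4, while their mean fold change was 0.16. The part of these cells in the S100a8 and S100a9 values was not tested.

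S100a3, the hair member, was on average lower in K320E. It measured 8.10, 8.14, 7.67 and 8.16 in K320E, against 9.46, 8.22, 8.69 and 10.62 in controls. The groups did not overlap, but control replicate 2 was only just above the highest K320E array, and control replicate 4 was far above all others. S100a3 had a log2 fold change of -1.23 (SE 0.44, 95% confidence interval -2.22 to -0.25; limma adjusted p = 0.23), the 28th lowest of all genes. Without control replicate 4 it was -0.77 (limma adjusted p = 0.28). Without control replicates 2 and 3 together it was -2.02 (limma adjusted p = 0.040), which passed the threshold, as did S100a9 at 2.08 (limma adjusted p = 0.035). Of the controls, replicates 2 and 3 were nearest to K320E for both genes, so leaving them out had to widen both differences.

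Other hair transcripts were also lower on average. Of 19 hair shaft genes 0 passed the threshold, and 10 had an unadjusted p under 0.05 (14.8% of all genes). Groups did not overlap in 6 of the 19 (9.25% of all genes). All 19 had negative fold changes (median -0.52), though Hoxc13 was level at -3.5e-05. The most highly expressed, Krtap8-1 and Krt34, had fold changes of -2.41 and -1.27. Without control replicate 4 the hair shaft median was -0.30 and 18 of the 19 were negative. In that fit 1 of them passed (0.532% of all genes), Krtap8-1 at -1.89 (limma adjusted p = 0.027). Of 8 inner root sheath keratins 0 passed, 6 had an unadjusted p under 0.05 (14.8% of all genes) and all 8 were negative (median -1.07). Among them Krt25 had -1.16 and Krt73 -0.75. Without control replicate 4 the inner root sheath median was -0.67, 7 of the 8 were negative and 0 passed. Without control replicates 2 and 3 together, 3 hair shaft genes (Krtap8-1, Dsg4 and Krt81) and 5 inner root sheath keratins (Krt25, Krt27, Krt28, Krt71 and Krt73) passed, all lower in K320E. In that fit 0.834% of all genes passed. The controls left out had the lowest control means of both lists, so the differences of the list means had to widen. Padi3, the enzyme that citrullinates S100a3, had a fold change of -0.51 (limma adjusted p = 0.28). Control replicate 4, with the highest S100a3 and hair shaft level, had the lowest S100a8 and S100a9. With the hair shaft level as a covariate, the fold change of S100a3 was 0.034 and those of S100a8 and S100a9 were 0.87 and 0.76 (limma adjusted p = 0.98, 0.55 and 0.51). The covariate's values in K320E and controls do not overlap, so its part and that of genotype cannot be told apart. In bulk epidermis, fewer cells of a type and less RNA per cell cannot be told apart either.

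**Figure D2:**
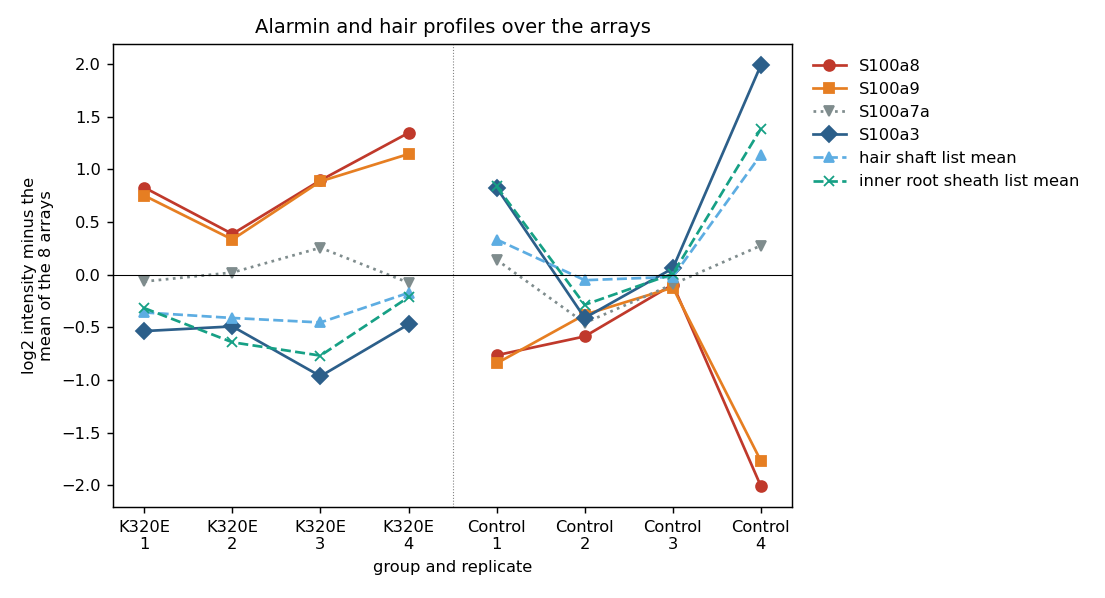
Log2 intensity of the alarmins S100a8, S100a9 and S100a7a, of the hair member S100a3 and of the mean of the hair shaft and inner root sheath lists, each minus its own mean over the 8 arrays, on the vertical axis, for each array, K320E left of Control. S100a8 and S100a9 run close to each other, from 1.35 and 1.14 in K320E replicate 4 to -2.01 and -1.77 in control replicate 4, where S100a3 is at 1.99.

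The other 6 members had smaller differences. S100a6 (calcyclin), a calcium sensor of dividing and stressed cells that binds annexins and the Cacybp protein, had the lowest adjusted p of the family. It measured 11.88, 11.58, 11.90 and 11.96 in K320E, against 11.48, 11.17, 11.36 and 11.15 in controls. All K320E arrays lay above all controls. Its log2 fold change was 0.54 (SE 0.10, 95% confidence interval 0.30 to 0.77; limma adjusted p = 0.057). It passed the threshold without K320E replicate 2, its lowest K320E array (0.62, limma adjusted p = 0.029). With each of the other arrays left out in turn it did not pass (limma adjusted p from 0.061 to 0.17).

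S100a16, a broadly expressed member with a degenerate EF-hand, had tight groups. It measured 9.27, 9.17, 9.03 and 9.06 in K320E, against 8.76, 8.85, 8.73 and 8.89 in controls, with no overlap. S100a16 had a log2 fold change of 0.32 (SE 0.07, 95% confidence interval 0.16 to 0.48; limma adjusted p = 0.080).

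S100a10 is the partner of annexin A2 at the cell membrane and is unusual in the family in not binding calcium. It measured 11.91, 11.88, 12.05 and 11.89 in K320E, against 11.41, 11.63, 11.88 and 11.56 in controls. Of the K320E arrays 3 were above the highest control, control replicate 3, and the remaining one was just below it. The log2 fold change was 0.31 (SE 0.10, 95% confidence interval 0.093 to 0.53; limma adjusted p = 0.18). Anxa2, which encodes annexin A2, had a fold change of 0.21 (limma adjusted p = 0.31).

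S100a14, an epithelial member, had a similar mean difference and likewise some overlap. It measured 12.19, 11.78, 11.73 and 11.79 in K320E, against 11.59, 11.70, 11.73 and 11.20 in controls. K320E replicate 1 was far above the rest and control replicate 4 far below, and 3 K320E arrays were above the highest control. The log2 fold change was 0.32 (SE 0.14, 95% confidence interval 0.0052 to 0.63; limma adjusted p = 0.33), and 0.20 without control replicate 4 (limma adjusted p = 0.52).

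S100a11, which transglutaminase links into the cornified envelope, was level in the groups. It measured 13.03, 13.10, 13.13 and 13.10 in K320E, against 13.04, 13.06, 13.11 and 13.07 in controls. The log2 fold change was 0.02 (SE 0.05, 95% confidence interval -0.095 to 0.13; limma adjusted p = 0.92). S100a11 had the highest value of all genes on 6 of 8 arrays and the second highest on the others, so it sits at the top of the measured range. Whether its signal was saturated was not tested. The pseudogene S100a11-ps, on a probe set of its own, had a fold change of -0.10 (limma adjusted p = 0.60), and whether the copies share signal was not tested.

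S100a4, known from fibroblasts, leukocytes and dendritic cells and as a binder of non-muscle myosin, was the other member with a negative fold change. It measured 7.07, 7.70, 7.98 and 7.61 in K320E, against 8.22, 8.51, 8.53 and 7.84 in controls. Of the K320E arrays 3 were below the lowest control, control replicate 4, and K320E replicate 3 was above it. The log2 fold change was -0.69 (SE 0.21, 95% confidence interval -1.15 to -0.22; limma adjusted p = 0.17).

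Leukocyte transcripts were also lower in K320E in part. Over all genes, 0.194% were called lower, 0.685% higher, and 14.8% had an unadjusted p under 0.05. Of 6 Langerhans and dendritic cell markers 2 fell, H2-Aa by 1.05 (SE 0.08, limma adjusted p = 0.0021) and H2-Ab1 by 0.98 (SE 0.13, limma adjusted p = 0.013). All 6 were negative (median -0.13), including H2-Eb1 at -0.19. Apart from these H2 genes, the list was near level. Cd207, Itgax and Flt3 had -0.067, -0.032 and -0.040 (limma adjusted p = 0.69, 0.88 and 0.81). Without control replicates 2 and 3 together, H2-Ab1 did not pass (limma adjusted p = 0.055). The mean of the 6 ran from 5.75 to 5.85 in K320E and from 6.12 to 6.26 in controls. It takes in H2-Aa and H2-Ab1, whose fold changes were by far the largest of the list. Of 5 T cell markers 0 were called lower, and 4 were negative (median -0.54). An unadjusted p under 0.05 was found in all 5, and groups did not overlap in 3 (9.25% of all genes). Ptprc, the common leukocyte gene, had -0.54 (limma adjusted p = 0.23). Cd3g, picked with its value already seen, was the lowest at -1.19 (limma adjusted p = 0.14). Thy1 rose by 0.69 (SE 0.13, limma adjusted p = 0.0495), and did not pass without control replicate 4 (0.62, limma adjusted p = 0.11). The T cell list mean ran from 6.55 to 7.07 in K320E and from 6.97 to 7.32 in controls. Of 10 macrophage markers 0 passed and 1 had an unadjusted p under 0.05 (median -0.09, Cd68 at 0.51 and C1qb at -0.13), and of 8 fibroblast markers 0 passed and 1 had one (median 0.12, Postn at -0.23 and Dcn at -0.14). The fibroblast median was 0.026 without control replicate 4. The part of these cells in the S100a4 value was not tested.

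**Figure D3:**
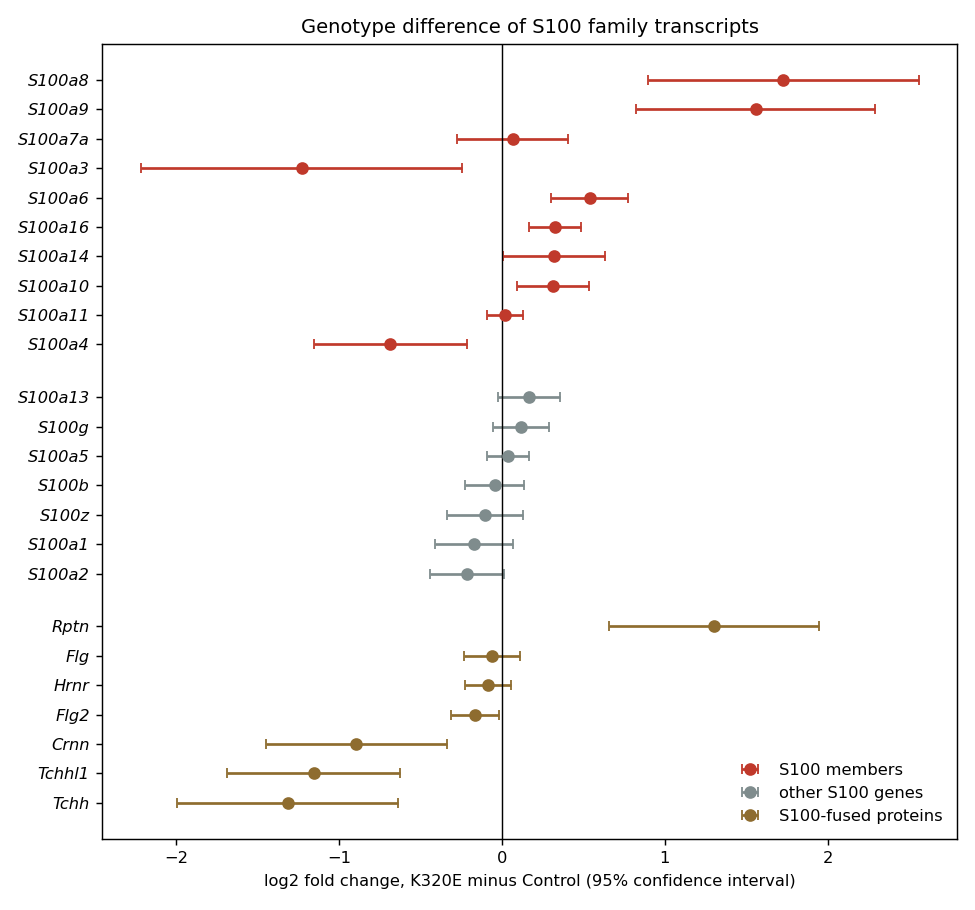
Log2 fold change, K320E minus Control, on the horizontal axis with its 95% confidence interval from limma's moderated fit, for the 10 S100 members, 7 other S100 genes and 7 proteins with a fused S100 domain, each named on the vertical axis. Intervals are for single genes and are not adjusted for the number of genes; S100a8 and S100a9 lie farthest to the right at 1.73 and 1.56, and S100a3 and the trichohyalin gene Tchh farthest to the left at -1.23 and -1.32.

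The alarmins and the 6 other members were then compared within each array. The mean of the 3 alarmins was 7.70 ± 0.24 over the K320E arrays and 6.58 ± 0.44 over the controls (SD, n = 4 each), which differ by 1.12. The mean of the 6 others was 10.91 ± 0.04 over the K320E arrays and 10.77 ± 0.12 over the controls (SD, n = 4 each), which differ by 0.14, and by 0.088 without control replicate 4. This mean takes in S100a4 at -0.69 beside 5 members with positive fold changes, and the median fold change of the 6 was 0.32. The alarmin mean minus the mean of the others was -3.25, -3.48, -3.15 and -2.96 in K320E, against -4.10, -4.16, -3.85 and -4.65 in controls. The spacing between the sets was thus narrower on every K320E array than on any control, by 0.98 on average. S100a8 and S100a9 made up this difference, the S100a7a fold change being near 0. These means are a description and were not tested.

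Relatives of the members were surveyed next. Of 7 other S100 genes 0 passed the threshold, 0 had an unadjusted p under 0.05 and 0 had groups that did not overlap, with fold changes of 0.17 for S100a13, 0.11 for S100g, 0.036 for S100a5, -0.045 for S100b, -0.10 for S100z, -0.17 for S100a1 and -0.22 for S100a2. Their median was -0.045 (-0.083 without control replicate 4), and 6 of the 7 had a mean below the median gene. S100a7l2, added after its value was seen, had a fold change of -0.011.

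The S100-fused proteins join an S100 domain to long repeats and build keratohyalin, the cornified layer and the inner root sheath. Of 7 such genes 0 passed the threshold, and the median fold change was -0.17. An unadjusted p under 0.05 was found in 5 (14.8% of all genes), and groups did not overlap in 5 (9.25% of all genes). Rptn, which encodes repetin of the cornified envelope, averaged 11.51 ± 0.18 in K320E, against 10.21 ± 0.68 in controls (SD, n = 4 each), so that its log2 fold change was 1.30 (SE 0.29; limma adjusted p = 0.083). Without control replicate 4 it was 0.96 and passed (limma adjusted p = 0.0076). Tchh, the trichohyalin gene of the inner root sheath, had a fold change of -1.32 (SE 0.30, limma adjusted p = 0.092), its relative Tchhl1 one of -1.16 (SE 0.24, limma adjusted p = 0.066), and the cornulin gene Crnn one of -0.90 (SE 0.25, limma adjusted p = 0.14). The filaggrin gene Flg at -0.059, hornerin at -0.086 (Hrnr) and Flg2 at -0.17 made up the list. Without control replicates 2 and 3 together Tchh and Crnn passed, at -1.85 and -1.37. For both genes the controls left out were those nearest to K320E, so the differences had to widen. Repetin was thus alone among the 7 in having a positive fold change.

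Genes that receive, bind or regulate S100 proteins held a single call. Over all genes, 0.685% were called higher, 0.194% lower, and 14.8% had an unadjusted p under 0.05. Of 9 receptors and co-receptors 0 passed and 2 had an unadjusted p under 0.05 (median 0.08, and 0.13 without control replicate 4); the fold changes ran from 0.46 for Cd14, a co-receptor of TLR4 (limma adjusted p = 0.11), to -0.22 for the adhesion molecule Alcam. Tlr4 and Ager, which encode TLR4 and RAGE and were named after their values were seen, had 0.073 and 0.044. Of 8 intracellular partners 0 passed and 6 had an unadjusted p under 0.05 (median 0.24), with Tgm1, the keratinocyte transglutaminase, highest at 0.54 (limma adjusted p = 0.074, and 0.033 without control replicates 2 and 3 together) and Padi3 lowest. For Tgm1, control replicates 2 and 3 were the controls nearest to K320E. Of 13 cytokines that induce alarmins in keratinocytes or act beside them, 1 rose, Il24, by 1.41 (SE 0.16, limma adjusted p = 0.0066), and 0 fell (median 0.058, and -0.0013 without control replicate 4). Il36a, listed as Il1f6, was lowest at -0.23. Of 10 transcription factors 0 passed and 5 had an unadjusted p under 0.05 (median 0.27), with Rela, the NF-kappaB subunit, highest at 0.45 (limma adjusted p = 0.052) and Spi1 lowest at -0.022.

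Markers of the remaining cell types had 0 genes past the threshold. At an unadjusted p under 0.05 (14.8% of all genes) there were 2 keratinocyte, 3 melanocyte, 1 muscle, 0 mast cell, 0 endothelial and 0 Schwann cell genes. The median fold changes were 0.35 for 5 mast cell genes (Cpa3 0.65, Cma1 0.39), 1.03 for 5 muscle genes (Tnnt3 1.03, Mylpf 1.08), -0.34 for 6 melanocyte genes (Mlana -0.40, Dct -0.29), 0.19 for 3 endothelial genes (Cdh5 0.10, Pecam1 0.19) and 0.074 for the 8 keratinocyte genes (Krt10 -0.0076, Krt1 0.071). Sox10, the single Schwann cell marker measured, had 0.13. The muscle list mean ran from 6.80 to 8.15 in K320E and from 6.23 to 7.21 in controls, and the mast cell list mean from 5.49 to 6.36 in K320E and from 5.30 to 5.85 in controls. The part of these cells in the members' values was not tested. The mast cell median was 0.18 without control replicate 4.

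The genes whose profile over the 8 arrays came closest to each alarmin and to S100a3 were ranked by the root mean square difference between log2 values centred on each gene's own mean. For S100a8 the closest was S100a9 at 0.14 log2 units, followed by the stress keratin gene Krt6a at 0.22, Rptn at 0.31, Sprr2g at 0.33 and Sprr1b at 0.34, against a median of 1.03 over all genes. For S100a9 the order was S100a8 at 0.14, Krt6a at 0.24, Rptn at 0.24, Sprr2e at 0.27 and Sprr2h at 0.30. The Sprr genes encode small proline-rich proteins of the cornified envelope. S100a3 was closest to the hair gene Krtap13-1 at 0.20, the inner root sheath keratin gene Krt72 at 0.21, the protease gene Ctse at 0.21, Krtap5-2 at 0.24 and Tchh at 0.25, against a median of 0.91. S100a7a, which varied by 0.22 around its own mean, was closest to Zeb1 at 0.075, Serpina1c at 0.081, Olfr455 at 0.095, Dock5 at 0.095 and Dnaaf6b at 0.10. Around their own means S100a8 varied by 1.03 and S100a3 by 0.90, near the medians given. A gene level over the arrays lies that far from them, so these medians largely reflect the members' own spread. Closeness here includes the genotype difference and rests on 8 arrays.

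All 10 members lie on chromosome 3 in the gene table of assembly GRCm38.p6. S100a14, S100a16, S100a3, S100a4, S100a6, S100a7a, S100a8 and S100a9 follow in that order, with S100a2 and S100a5 the only measured genes among them, and S100a11 and S100a10 lie at the far end of the differentiation complex. Fold changes of neighbouring members spread widely: S100a7a at 0.07 sits directly beside S100a8 at 1.73, and S100a4 at -0.69 lies between S100a3 and S100a6. Of 50 measured genes between S100a9 and S100a11 or S100a10, 11 rose (22%, against 0.685% of all genes) and 0 fell, with a median fold change of 0.17. These were Pglyrp3, the 6 small proline-rich genes or pseudogenes Sprr1a, Sprr1b, Sprr2e, Sprr2g, Sprr2h and Sprr2j-ps, and the 4 late envelope genes Lce3c, Lce3d, Lce3e and Lce3f, by 0.71 to 2.54. Without control replicate 4, 12 of the 50 rose, 10 of them among the 11, and the median was 0.092. In that fit 0.532% of all genes were called in either direction. Without control replicates 2 and 3 together 10 rose, all among the 11, and 2 fell, Tchh and Crnn, with a median of 0.38. There 0.834% of all genes were called in either direction. Because Sprr2 paralogs are alike in sequence, probe sets may mix them, and their single values are uncertain.

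**Figure D4:**
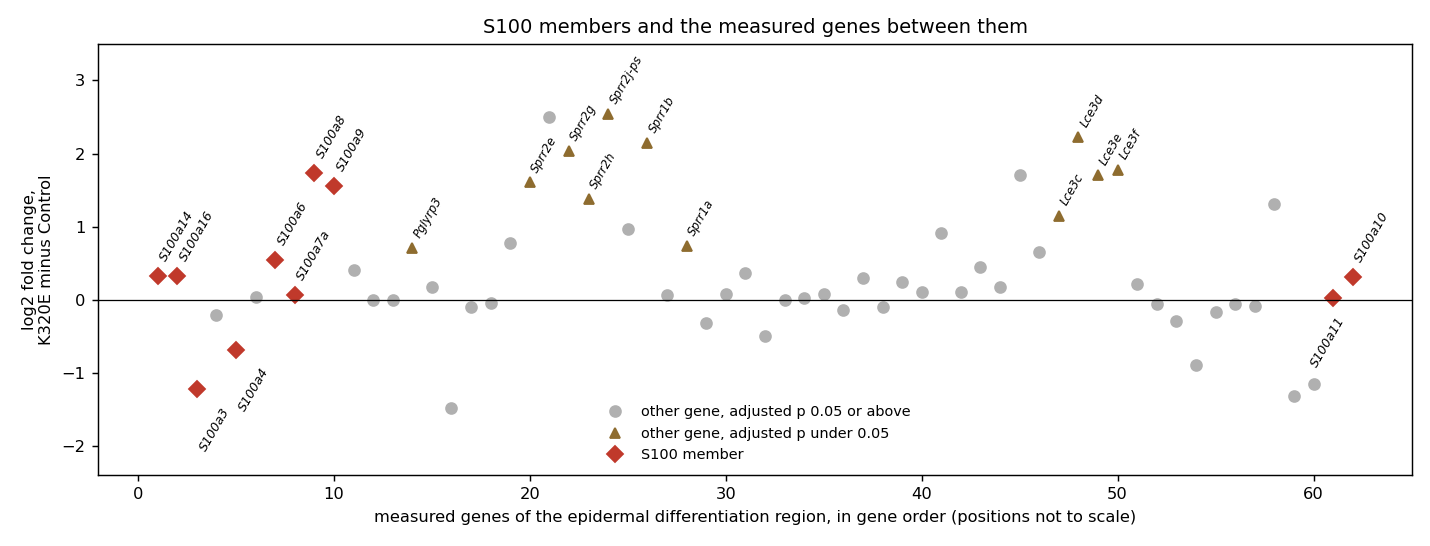
Log2 fold change, K320E minus Control, on the vertical axis for the 10 S100 members and the 52 other measured genes between the outermost members, in the order of the gene table on the horizontal axis, with positions not to scale. S100a8 and S100a9 are the highest S100 members at 1.73 and 1.56, and the 11 called genes, between 0.71 and 2.54, all lie between S100a9 and S100a11.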

How the data were processed

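Total RNA from newborn mouse epidermis was profiled on 8 arrays, after extraction with a Maxwell 16 LEV simplyRNA kit and NuGEN Applause WT-Amp Plus ST amplification, per the labels' protocols. The authors deposited log2 intensities for 33793 probe sets, used here as they stand; how background, summarisation and normalisation were done is not given in the sources used. Groups came from the sample titles. GEO's platform annotation gave 23521 probe sets 1 gene symbol, 1814 several and 8458 none; each of 22180 genes was represented by its probe set of highest mean. The lists had 173 entries beside the Y-linked one, and 161 matched. The 8 arrays entered a single limma 3.58.1 fit (R 4.3.3, lmFit and eBayes, two-sided) with genotype as its only term, with p-values adjusted over all genes. The named genes were the members, the other S100 and S100-fused genes, the called, highest and lowest genes of the related lists, the 2 most highly expressed genes of each marker list and the 5 closest profiles; Gm, LOC and Rik names were left out of the profiles. Ly6g, Mpo, Cd3g, Anxa2, S100a11-ps and genes named only for passing without some controls were picked with their values already seen. The members and lists were chosen with earlier results of these data known. The number of arrays limits the precision. The alternatives tried were median centring, quantile normalisation, a test of every probe set, the average of a gene's probe sets, leaving out the lowest 33.3% of genes, an intensity trend with robust prior, array weights, the replicate block, hair shaft or Y-linked level as a covariate, and leaving out arrays.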

Additional observations from a re-analysis of the deposited data

Results flagged for a closer look

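Among the 20 sets of 4 arrays checked (10 members in each group), 2 held an array far from the other 3; chance alone flags about 1 in 20 such sets. S100a3 in K320E replicate 3 was at 7.67, against 8.10 to 8.16 in the other K320E arrays, a gap of 0.87 of the group's range. S100a14 in K320E replicate 1 was at 12.19, against 11.73 to 11.79 in the other K320E arrays, a gap of 0.86 of the range. Without K320E replicate 3 the fold change of S100a3 was -1.12 and without K320E replicate 1 that of S100a14 was 0.21 on the log2 scale, neither past the threshold.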

How the results depend on the processing

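Over 19 alternatives the fold changes of S100a4, S100a6, S100a8, S100a9, S100a10, S100a14 and S100a16 kept their sign. The count of members past the threshold, 0 in the report, was 3 with the lowest 33.3% of genes left out (S100a6, S100a8 and S100a9, limma adjusted p of 0.033, 0.032 and 0.031), where fewer genes were tested, 1 with the intensity trend and robust prior (S100a6, 0.025), 2 without control replicates 2 and 3 together (S100a3 and S100a9), and between 0 and 1 when each array was left out in turn. Control replicates 2 and 3 were the controls nearest to K320E for S100a3 and S100a9. The limma adjusted p of S100a8 ran from 0.032 to 0.55, of S100a9 from 0.031 to 0.51 and of S100a6 from 0.025 to 0.40. With the hair shaft level as a covariate the mean fold change of the alarmins was 0.66, that of the 6 others 0.0019 and their difference 0.66, and S100a3 turned to 0.034; the cause was not tested. S100a7a turned negative without control replicates 2 and 3 together (-0.17) and ran from -0.075 to 0.17 over the fits that left out each array. S100a11 ran from 0 to 0.039. Over all genes, 195 were called in the report, 114 with the replicate block, 6 with the hair shaft covariate, and between 53 and 173 when each array was left out. With the replicate block 0 members passed, and under the 19 alternatives the median fold change of all genes stayed at or below 0.017 in size. Correlations of deviations from the group means lay between -0.065 and 0.14 for same-numbered arrays of the 2 groups. For differently numbered arrays they lay between -0.15 and 0.13. No label says that same-numbered arrays share an animal, litter or day. S100a11 sits at the top of the measured range, where differences may be compressed, which was not tested, and S100a7a lies below the median gene.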
